A study of Mus musculus with 40 samples.

Results

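After a dose of cyclophosphamide, the transcript of the cell cycle inhibitor Cdkn1a (p21) was 3.10-fold higher than control in mouse bone marrow on day 1 and 3.24-fold higher on day 2, and its difference from control on day 5 did not pass the test. Ddit4, Tnfrsf10b and Polk were also higher on day 1, and Ddit4 and Tnfrsf10b on day 2, though that Ddit4 result held in only 27 of 35 alternative analyses. The death effectors Casp2 and Bak1 were lower on days 1 and 2, and Trp53inp1 was lower on day 5. Without control mouse 4, neither Bak1 difference passed the test, nor did that of Casp2 on day 1. The Tnfrsf10b level was followed closely by 88 other features, some of them annotated to genes known from other tissues. These 7 genes, targets of the tumour suppressor p53 or effectors of apoptosis, were taken by symbol from the 9616 genes that the array annotation names. Each gene has 1 probe, and all 7 were measured in at least 3 mice of every group and so were tested.

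Bone marrow cells of 20 DBA/2 mice, an inbred laboratory strain, were studied in 4 groups of 5. Control mice were untreated. The other mice received 83 mg/kg cyclophosphamide by intraperitoneal injection, and their marrow was taken 1, 2 or 5 days later. The labels give neither age nor sex, and call the 5 mice of a group biological replicates and the 2 arrays of each mouse technical replicates. Mouse RNA carried the dye Cy5, and a common reference from the same strain carried Cy3. The labels describe the reference as pooled marrow of untreated mice, but its treatment field names cyclophosphamide, and this contradiction was not settled. The reference cancels in every difference between groups, whereas each level printed below is relative to it.

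Cyclophosphamide is a prodrug whose metabolites cross-link DNA. DNA damage stabilises p53, a transcription factor that then raises genes which halt the cell cycle, repair DNA, restrain growth or start apoptosis. Blood-forming cells divide fast and are known for a strong p53 response and a low threshold for apoptosis. Apoptosis runs through death receptors at the cell surface, or through Bak1 and its relative Bax, which open the outer mitochondrial membrane, and both routes end in caspases, the proteases that dismantle the cell.

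A level below is the mean of the 2 arrays of a mouse as a log2 ratio over the reference. A difference is that of 2 group means on the log2 scale, with its standard error and 95% confidence interval from limma, a linear model moderated across features. The model was fitted to 5297 features (3926 named genes and 1371 unnamed probes), p-values were adjusted over all of them by the Benjamini-Hochberg method, and a feature was called at an adjusted p under 0.05. Folds assume that the deposited logarithms are base 2, which the sources used here do not state. Between 4079 and 7977 of the 13443 probes had a value on an array, the 2 arrays of a mouse correlated at 0.683 to 0.957, and control mouse 4 and day 1 mouse 1 were the least like their own groups, with mean correlations of 0.284 and 0.372. With 5 mice in a group, differences between day 1 and control had a median standard error of 0.13.

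Cdkn1a encodes p21, an inhibitor of cyclin-dependent kinases and a classical p53 target. The 250 bases upstream of its first RefSeq start site (GRCm38.p6, chr17:29090729-29090978, plus strand) are shown because Cdkn1a had the largest rise among the named genes, with the stretch that best matched the p53 consensus in capitals.
Cdkn1a upstream region: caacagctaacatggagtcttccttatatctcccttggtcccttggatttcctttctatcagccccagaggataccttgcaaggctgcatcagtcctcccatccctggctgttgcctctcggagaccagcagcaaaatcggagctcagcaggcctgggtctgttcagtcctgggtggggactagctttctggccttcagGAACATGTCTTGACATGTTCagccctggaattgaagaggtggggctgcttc

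The capitals, at chr17:29090928-29090947, begin 51 bases before the start site and match 19 of the 20 bases of the p53 consensus. A match with at most 1 mismatch was found in 29 of 32851 promoter windows of the RefSeq table (0.0883%), each reaching from 250 bases before to 50 after a start. The core, CATG followed by 6 bases of any kind and a further CATG, lies within the stretch and occurred in 0.712% of windows. The consensus and the core read the same on both strands, and the core is itself part of the consensus, so the searches overlap. RefSeq windows were held for 5 of the 7 genes, 7 windows in all, and those of Tnfrsf10b and Trp53inp1 are not shown. The best stretch of each of the other genes is given for comparison, written in the direction of its gene with capitals at the bases that match the consensus.
Cdkn1a, chr17:29090928-29090947: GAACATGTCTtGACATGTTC
Polk, chr13:96519409-96519428 (minus strand): cAtgTAGCTTGAACTAGCCT
Ddit4, chr10:59951775-59951794 (minus strand): GGACAgGTCCGGGCAgcgaT
Casp2, chr6:42264750-42264769: AAGgATaaCaAGGgAAGCCC
Bak1, chr17:27028804-27028823 (minus strand): GAAgATGgaaGAGgAgGCCC

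The Polk stretch matches at 17 of 20 bases, which 6.29% of windows reach. Ddit4 and Casp2 reach 15 matching bases, as 76.6% of windows do, and Bak1 reaches 14. Cdkn1a and Polk had 2 windows each, and only the better one is shown. Their other windows reach 15 and 14 matching bases. The shares are per window and not per gene. A match describes these letters only, and no binding was measured.

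In control mice 1 to 5 the Cdkn1a level was -0.14, 0.065, -0.12, -0.16 and -0.066. On day 1 it was 1.97, 0.29, 2.33, 1.64 and 1.52. All 5 day 1 mice lay above all 5 control mice, and mouse 2 was by far the lowest of its group. On day 2 the levels were 1.17, 0.94, 1.60, 2.31 and 2.03, again with no overlap with control. On day 5 they were -0.0017, 0.21, 0.13, 0.29 and 0.32, below every day 2 mouse but not below day 1 mouse 2. Of the 5 day 5 mice, 4 lay above every control mouse.

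The Cdkn1a difference from control was 1.63 ± 0.26 on day 1 (interval 1.09 to 2.17, limma adjusted p = 0.000508) and 1.69 ± 0.26 on day 2 (interval 1.15 to 2.24, adjusted p = 0.000144). On both days it ranked 1 of 3926 named genes by size of rise. Leaving out each mouse in turn gave 1.44 to 1.95 on day 1, always called. The difference between days 2 and 1 was 0.06 (interval -0.48 to 0.60, adjusted p = 0.978), and it became -0.25 without day 1 mouse 2. Day 5 minus control was 0.27 ± 0.26 (interval -0.27 to 0.81, adjusted p = 0.851), and day 5 minus day 2 was -1.42 (adjusted p = 0.000447). The standard error rests on 1 spread shared by all 4 groups, and that spread was wider on days 1 and 2 than in control and on day 5. A fit of only control and day 5 also called none of the 7 genes higher. The missing call does not show that Cdkn1a was back at the control level.

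Cdkn1a also varied widely among the mice of days 1 and 2. Its SD over 5 mice was 0.0906 in control, where the median feature had 0.161. On day 1 the SD was 0.772, above that of 99.9% of features, and on day 2 it was 0.570, where the median feature had 0.177. By day 5 it was 0.131, below the 0.163 of the median feature. The 2 arrays of a mouse differed by at most 0.252 for Cdkn1a.

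**Figure D1:**
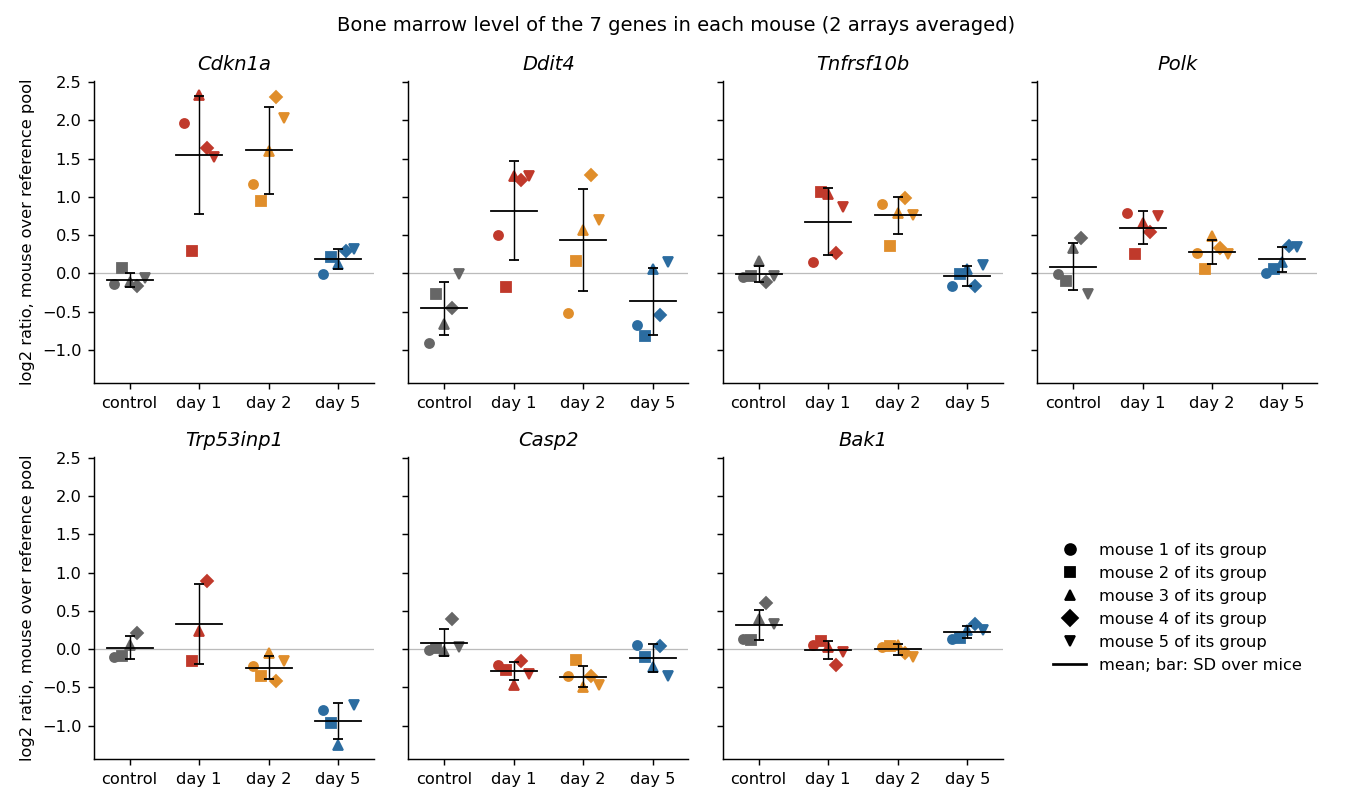
Level of each of the 7 genes in every mouse (log2 ratio over the reference, 1 point per mouse, bars at the group mean) in control and on days 1, 2 and 5. Cdkn1a lies between 0.29 and 2.33 on day 1 with all mice above control, and Trp53inp1 on day 5 lies below all other groups.

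Ddit4 (REDD1) is a stress-induced inhibitor of the growth kinase complex mTORC1. Control levels were -0.90, -0.27, -0.66, -0.45 and -0.0041, and day 1 levels were 0.50, -0.18, 1.27, 1.23 and 1.27. Mouse 2 was again the lowest on day 1, and it lay within the control range. Day 2 levels were -0.52, 0.16, 0.57, 1.28 and 0.70, and day 5 levels were -0.68, -0.82, 0.055, -0.54 and 0.15. Both groups overlapped control, with day 2 mouse 1 inside the control range. Ddit4 varied widely in every group. Its SD was at or above that of 94.8% of features in control, 99.5% on days 1 and 2 and 96.8% on day 5.

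Ddit4 was higher than control by 1.28 ± 0.29 on day 1 (2.42-fold, interval 0.68 to 1.88, limma adjusted p = 0.00453), the rank 3 rise among named genes. On day 2 it was higher by 0.89 ± 0.29 (interval 0.29 to 1.495, adjusted p = 0.0339). That day 2 call held in 27 of 35 alternatives and was lost without control mouse 1, 3 or 4 or without day 2 mouse 3, 4 or 5. The lowest difference was 0.68 (adjusted p = 0.0960), without day 2 mouse 4. Technical array 1 alone also lost the call (adjusted p = 0.0579), as did leaving out control mouse 4 with day 1 mouse 1 (adjusted p = 0.0547). Day 5 minus control was 0.09 ± 0.29 (interval -0.51 to 0.69, adjusted p = 0.971). Between days 5 and 1 the difference was -1.18 (adjusted p = 0.00438), whereas between days 5 and 2 it was -0.80 ± 0.29 (adjusted p = 0.0519), which was not called here but passed in 14 of 35 alternatives. On day 5 the arrays of mouse 4 read -1.23 and 0.14, the widest gap between arrays of a mouse for any of the 7 genes.

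Tnfrsf10b is the mouse receptor for the death ligand TRAIL and a p53 target. Control levels were -0.049, -0.030, 0.16, -0.11 and -0.029. Day 1 levels were 0.15, 1.06, 1.04, 0.27 and 0.87, the value of mouse 1 coming from 1 array. Mouse 1 lay within the control range, while mouse 2, lowest for Cdkn1a and Ddit4, was the highest. Day 2 levels were 0.90, 0.36, 0.79, 0.99 and 0.76, all above control, and day 5 levels of -0.16, -0.0022, 0.055, -0.17 and 0.11 lay below all mice of days 1 and 2.

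Tnfrsf10b was higher than control by 0.69 ± 0.15 on day 1 (1.61-fold, interval 0.37 to 1.01, limma adjusted p = 0.00398) and by 0.77 ± 0.15 on day 2 (1.71-fold, interval 0.45 to 1.09, adjusted p = 0.00155). Day 5 minus control was -0.02 ± 0.15 (adjusted p = 0.982). Its level followed that of many other features. Of 2978 other features with values in all 20 mice, 88 correlated with it above 0.9, of which 60 were named genes, and 97.4% of features had fewer such partners. The leading named genes were Pla1a, a phospholipase (r = 0.966, or 0.895 with group means removed), Mtmr9, a phosphatase-like protein (0.963 and 0.863), and Fam131b (0.958 and 0.859), each over 20 mice, with the genes of a mouse read on the same arrays. The 88 include genes known for roles far from marrow, such as the neuronal factor Neurog1 and the embryonic signal Nodal, picked after their values were seen. Whether these probes, or that of Tnfrsf10b, report the named transcripts or share a property of the spots was not tested. Having been chosen for likeness over all groups, the 88 features had a median difference from control of 0.61 on day 1, 0.63 on day 2 and -0.02 on day 5, which restates the pattern of Tnfrsf10b. What part this shared pattern has in the Tnfrsf10b difference was not tested.

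Polk is a DNA polymerase that copies past damaged bases. Its control levels were -0.0088, -0.094, 0.34, 0.47 and -0.26, the value of mouse 4 coming from 1 array, and its day 1 levels were 0.79, 0.26, 0.66, 0.54 and 0.75. Control mice 3 and 4 were above the lowest day 1 mouse, so the groups overlapped. Day 2 levels were 0.27, 0.063, 0.49, 0.33 and 0.25, and day 5 levels were 0.0042, 0.062, 0.15, 0.35 and 0.35, both within the spread of control apart from day 2 mouse 3. Polk was higher on day 1 by 0.51 ± 0.13 (1.43-fold, interval 0.24 to 0.79, limma adjusted p = 0.0107), while the day 2 difference of 0.19 ± 0.13 (interval -0.08 to 0.47, adjusted p = 0.332) and the day 5 difference of 0.10 (adjusted p = 0.916) were not called. Day 5 lay below day 1 with a difference of -0.42 ± 0.13 (adjusted p = 0.0250), and this call held in 28 of 35 alternatives.

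Trp53inp1 is a p53 target that takes part in p53 signalling and autophagy. It had values in 4 control mice (-0.099, -0.093, 0.056 and 0.21) and 3 day 1 mice (-0.15, 0.24 and 0.89). Mouse 4 set the high end on day 1, and the groups overlapped. Day 2 levels were -0.22, -0.36, -0.049, -0.42 and -0.16. On day 5 the 4 measured mice read -0.80, -0.97, -1.26 and -0.72, below every measured mouse of the other groups.

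The Trp53inp1 difference from control was 0.31 ± 0.19 on day 1 (interval -0.08 to 0.70, limma adjusted p = 0.268) and -0.26 ± 0.16 on day 2 (adjusted p = 0.284), and neither was called. On day 5 it was -0.96 ± 0.17 (1.94-fold lower, interval -1.32 to -0.60, adjusted p = 0.00266). Day 5 was also below day 2, with a difference of -0.70 (adjusted p = 0.00453), and below day 1, with one of -1.26 (adjusted p = 6.93e-05). The step from day 1 to day 2 was -0.57 ± 0.18, which missed the threshold after adjustment (adjusted p = 0.105).

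Casp2 is an initiator caspase that is activated on the PIDDosome, a platform built by the p53 target Pidd1. Control levels were -0.0061, 0.019, -0.031, 0.40 and 0.029, with mouse 4 far above the others. Day 1 levels were -0.21, -0.28, -0.46, -0.16 and -0.32, and day 2 levels were -0.35, -0.15, -0.50, -0.35 and -0.47. Every mouse of days 1 and 2 lay below every control mouse. Day 5 levels of 0.058, -0.11, -0.24, 0.046 and -0.36 overlapped all other groups. Casp2 was 1.29-fold lower than control on day 1 (-0.37 ± 0.11, limma adjusted p = 0.0207) and 1.36-fold lower on day 2 (-0.45 ± 0.11, adjusted p = 0.00606), and the day 5 difference was -0.20 ± 0.11 (adjusted p = 0.530). The day 1 call was lost without control mouse 4 (-0.29, adjusted p = 0.0614) or without day 1 mouse 3 (-0.32, adjusted p = 0.0623), and with technical array 1 alone (-0.31, adjusted p = 0.0884), so that it held in 32 of 35 alternatives.

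Bak1 forms pores in the outer mitochondrial membrane. Control levels were 0.13, 0.12, 0.39, 0.60 and 0.33, day 1 levels 0.053, 0.11, 0.025, -0.20 and -0.034, and day 2 levels 0.030, 0.046, 0.057, -0.054 and -0.11. Control mice were again all above days 1 and 2. Day 5 levels of 0.13, 0.15, 0.24, 0.33 and 0.25 lay inside the control range and above every mouse of days 1 and 2. Bak1 was lower than control by a difference of -0.33 ± 0.10 on day 1 (limma adjusted p = 0.0221) and of -0.32 ± 0.10 on day 2 (adjusted p = 0.0231), and day 5 differed by -0.10 ± 0.10 (adjusted p = 0.860). Without control mouse 4 these became -0.26 (adjusted p = 0.0634) and -0.25 (adjusted p = 0.0683), and neither was called. Without control mouse 3 they were -0.31 (adjusted p = 0.05003) and -0.30 (adjusted p = 0.0516), and without day 1 mouse 4 the day 1 difference was -0.28 (adjusted p = 0.0511). Technical array 2 alone also lost both calls (adjusted p = 0.0653 and 0.0540), as did a fit of only the 2 groups for day 1 (adjusted p = 0.0704) and leaving out control mouse 4 with day 1 mouse 1 for day 2 (adjusted p = 0.0583). The Bak1 calls thus held in 30 of 35 alternatives on day 1 and 31 of 35 on day 2.

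**Figure D2:**
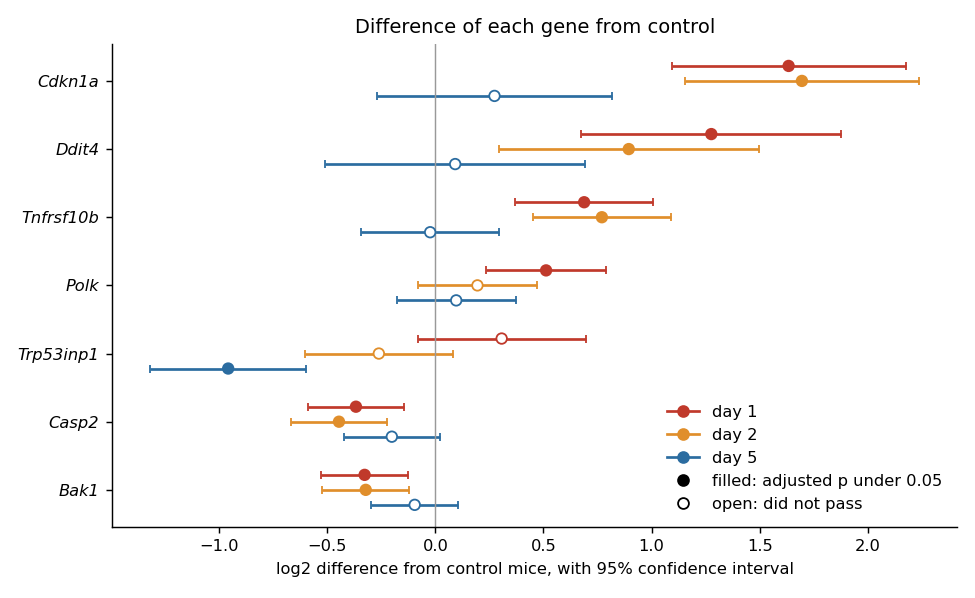
Difference of each gene from control on days 1, 2 and 5 (log2 scale, points with 95% confidence intervals from limma, filled where called). The Cdkn1a intervals on days 1 and 2 lie above 1, and on day 5 the interval of Trp53inp1, -1.32 to -0.60, is the only day 5 interval of the 7 that excludes 0. The width of each interval rests on 1 spread per gene shared by all 4 groups.

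On day 1, 4 of the 7 genes were called higher and 2 lower, where 19.1% of all features were called (10.7% higher and 8.38% lower). The median difference over the 7 was 0.51, against -0.01 over all features. Groups did not overlap for Cdkn1a, above control, and for Casp2 and Bak1, below it, against 6.95% of features above and 6.10% below. On day 2, 3 were called higher and 2 lower, where 19.2% of features were called (9.61% in each direction), and the medians were 0.19 and -0.02. Cdkn1a and Tnfrsf10b were above control without overlap on day 2 (9.59% of features), and Casp2 and Bak1 below (9.40%).

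On day 5 only Trp53inp1 of the 7 was called, lower, where 2.62% of features were called (1.72% lower), and it was also the only one without overlap (3.21% of features below control). None of the 7 was called between days 2 and 1, where 2.10% of features were. At an unadjusted p under 0.05 there were 2, Polk (-0.32, p = 0.0258) and Trp53inp1 (p = 0.00465). Between days 5 and 2, Cdkn1a, Tnfrsf10b and Trp53inp1 were called lower, where 20.8% of features were called (10.5% lower), and these 3 also had no overlap (9.27% of features below), while Bak1 lay higher on day 5 without overlap (9.67% above), with a difference that was not called (0.23, adjusted p = 0.103). Between days 5 and 1, 5 were called lower, namely Cdkn1a, Ddit4, Tnfrsf10b, Polk and Trp53inp1, where 25.3% of features were called (13.1% lower). Tnfrsf10b and Trp53inp1 were lower on day 5 than on day 1 without overlap (8.59% of features), and Bak1 was above day 1 without overlap (8.21%) but not called (0.23, adjusted p = 0.0834). These comparisons share groups and are not independent. Across all 4 groups the moderated F test called 7 of 7, where 30.7% of features were called. The 7 genes were chosen with earlier results of these data known. Their counts on each day and in the F test are therefore descriptions, not a test against the shares of all features.

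**Figure D3:**
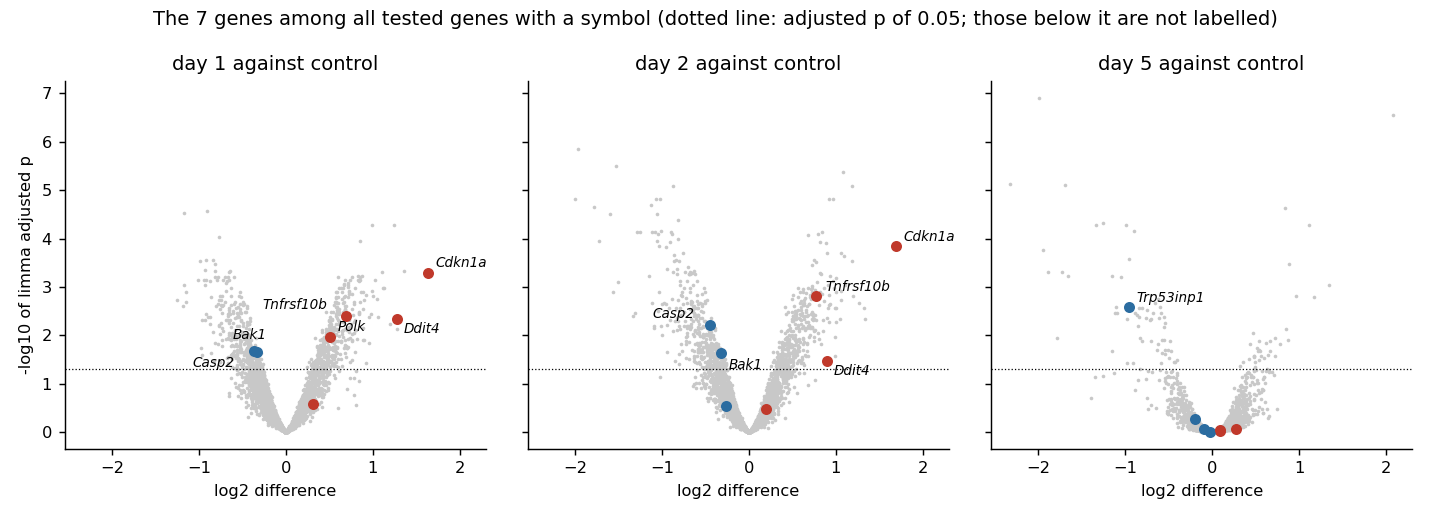
Each tested named gene (grey) by its difference from control (x axis, log2) and the -log10 of its adjusted p (y axis) on days 1, 2 and 5, with the 7 genes in red where the difference is positive and in blue where it is negative, and the called ones labelled. Cdkn1a is the rightmost gene on days 1 and 2, and on day 5 only Trp53inp1 is above the dotted line.

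Between mice the 7 genes did not move as 1 block. Over 20 mice Cdkn1a and Ddit4 correlated at 0.849, and at 0.696 with group means removed. Cdkn1a and Tnfrsf10b correlated at 0.719, but at -0.03 with group means removed, as the order of the day 1 mice shows. Casp2 and Tnfrsf10b correlated at -0.784 and at -0.586. All of these are descriptions over mice that share a reference and, within a mouse, the same arrays.

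**Figure D4:**
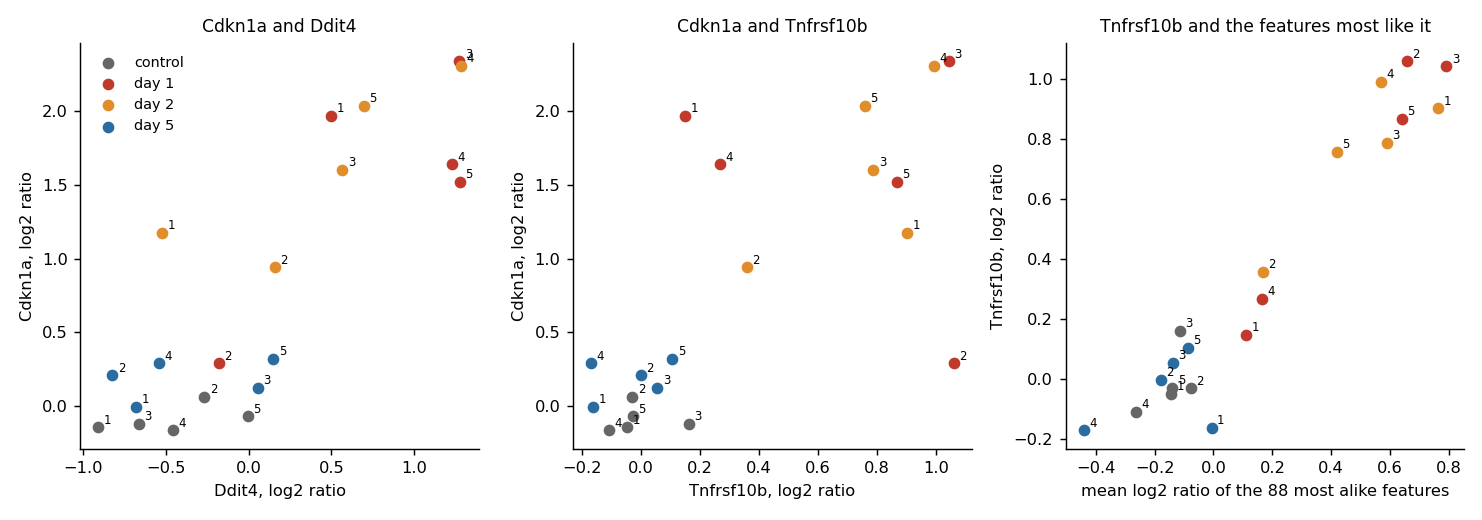
Mouse by mouse level (log2 ratio over the reference) of Cdkn1a against Ddit4 and against Tnfrsf10b, and of Tnfrsf10b against the mean of the 88 features most like it, 1 numbered point per mouse and coloured by group. Day 1 mouse 2, with Cdkn1a at 0.29, is low in Ddit4 at -0.18 but the highest of its group in Tnfrsf10b at 1.06.

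Among 2253 named genes with values in all 20 mice, those most like Cdkn1a were Ddit4, Zmat3 (r = 0.841, or 0.557 with group means removed) and Ccr9, a chemokine receptor (0.823 and 0.236). For Ddit4 they were Cdkn1a, Gimap3, a GTPase of lymphocytes (0.745 and 0.682), and Zmat3 (0.733 and 0.472). Zmat3 is an RNA-binding protein and itself a p53 target.

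The wider pathway was described with lists of 134 genes, of which 100 had a probe with the symbol and 30 could be tested, 23 besides the 7. The 23 hold 14 further p53 targets. Trp53, Bax and Ccng1 were not analysed here, and Mdm2, Fas, Pmaip1 and Gadd45a had a probe but values in 0 mice. Of the 23, 1 was higher and 1 lower on day 1, 2 were higher and 2 lower on day 2, and 0 were higher and 2 lower on day 5, with medians of 0.00, -0.05 and -0.03. Of all features, 19.1%, 19.2% and 2.62% were called on these days.

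Zmat3 rose by 0.36 ± 0.12 on day 1 (limma adjusted p = 0.0365) and by 0.43 ± 0.12 on day 2 (adjusted p = 0.0126), and was -0.02 on day 5. Sesn2, a stress-induced brake on mTORC1, rose on day 2 by 0.51 ± 0.15 (adjusted p = 0.0215), after 0.37 ± 0.15 on day 1 (adjusted p = 0.0850). Its day 2 levels of 0.42, 0.78, 1.09, 0.48 and 0.39 were all above the control maximum of 0.28. Dram1, a lysosomal membrane protein of autophagy and a p53 target, went the other way, with -0.43 ± 0.12 on day 1 (adjusted p = 0.0128) and -0.66 ± 0.12 on day 2 (adjusted p = 0.000523), then 0.41 ± 0.12 on day 5, which was not called (adjusted p = 0.0601). From day 2 to day 5 it rose by 1.07 ± 0.12. Tap1, a peptide transporter for antigen presentation, was lower on day 2 (-0.67 ± 0.14) and on day 5 (-0.96 ± 0.14, adjusted p = 0.000268), and Birc3, an inhibitor of apoptosis, on day 5 (-0.55 ± 0.14, adjusted p = 0.0248).

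The other death genes that could be tested gave no call against control. Bbc3 (Puma), a p53-induced activator of Bak1 and Bax, differed from control by 0.05, -0.06 and 0.14 on days 1, 2 and 5. Pidd1, the partner of Casp2, differed by 0.25, 0.04 and -0.29, and was lower on day 5 than on day 1 by a difference of -0.53 ± 0.13 (adjusted p = 0.00318). Casp6, an executioner caspase with values in 3 mice each on days 2 and 5, rose between these days by 0.48 ± 0.16 (adjusted p = 0.0422). Btg2, an antiproliferative p53 target, gave -0.04, -0.44 and -0.37.

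**Figure D5:**
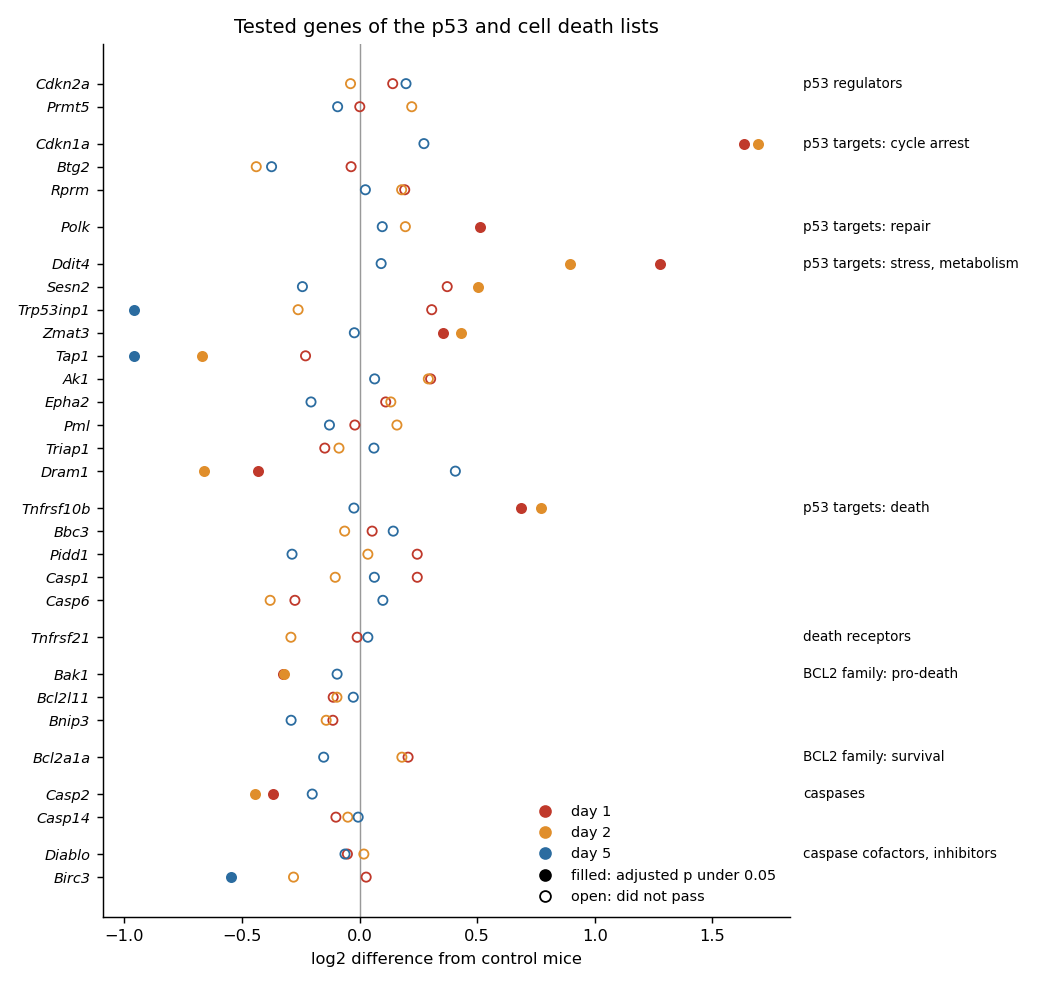
Difference from control (x axis, log2) of each tested gene of the p53 and cell death lists, grouped by role, with 1 point per day in the colour of days 1, 2 and 5 and filled where called. Cdkn1a has the largest rises on days 1 and 2, Zmat3 and Sesn2 are also higher on day 2, and Dram1 and Tap1 are lower.

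Bulk marrow cannot tell fewer cells of a type from less RNA per cell. Of 95 cell type markers in 12 lists, 79 had a probe and 40 were tested. Of 4 tested genes of dividing cells, 3 were lower on days 1 and 2 and 0 on day 5, and their mean level ran from -0.060 to 0.32 in control, from -0.75 to -0.35 on day 1, from -0.90 to -0.34 on day 2 and from -0.12 to 0.28 on day 5. Both tested markers of B cell precursors were lower on all 3 days. Of 5 resident macrophage markers, 2 were higher on day 1 and 5 on day 2, and of 4 endothelial markers 2 and 3 were. The endothelial marker Flt1, called on days 1 and 2, is among the 88 features that follow Tnfrsf10b. Of 6 late neutrophil markers, 1 was higher on day 1 and 4 were lower on day 2. Both tested markers of monocytes and both of granulocyte precursors were lower on day 1, and on day 5 both monocyte markers and 1 of the 2 granulocyte precursor markers were higher. Of 6 erythroid markers, 1 was higher on day 1 and 3 were lower on day 2. Of 3 megakaryocyte markers 1 was higher on day 1 and 2 on day 2, and of 2 markers of stroma and bone 1 and 2 were. Of 2 stem and progenitor markers 1 was higher on day 2, and neither of the 2 T and NK cell markers was called on any day. The late neutrophil list also had 2 of 6 lower on day 5. Of all features, 10.7% were called higher and 8.38% lower on day 1, 9.61% in each direction on day 2, and 2.62% in all on day 5. Single calls in such short lists were not tested against these shares. The part of any shifts in cell types in the differences of the 7 genes was not tested.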

How the data were processed

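The authors' deposited values are 1 log2 ratio per probe and array, Cy5 (mouse) over Cy3 (reference) per the labels' protocols. Not given in the sources used here are the log base, scanner, background correction, normalization and the rule behind blank values (40.7% to 69.7% of probes per array). Array medians ran from -0.015 to 0.0067, as after centring. Natural logarithms cannot be told apart from base 2 and would make every fold larger.

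Gene symbols came from the platform annotation. Of 13443 probes, 10032 had 1 symbol, 170 several and 3241 none, and 10028 matched RefSeq. The 2 arrays of a mouse, then probes of a symbol, were averaged, and features with at least 3 mice in every group were tested. One mean per group was fitted over 20 mice in limma 3.58.1 (R 4.3.3) with empirical Bayes moderation. Where a mouse had no value, the fit dropped it for that gene and nothing was filled in. No member value sat at a value that many probes of an array share, as saturated spots would. On simulated data for day 1 against control, with 5297 features, 59 of 100 true differences of 0.5 and 96 of 100 of 1 were recovered, and 8 unchanged features were called. The simulated noise was normal, independent between features and of equal spread in all groups. In the real data features correlate, 19.1% were called on day 1, and the median SD was 0.161 in control and 0.216 on day 1. The simulated rates may therefore not hold for the real fit.

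The 7 genes, the gene lists and the tests were chosen with earlier results of these data known. Named genes were the 7, up to 4 called members of each list by smallest p, and the 3 named genes most correlated with Cdkn1a, Ddit4 and Tnfrsf10b. Others, such as Bbc3, Pidd1, Casp6 and Btg2, were picked after their values were seen. Alternatives covered arrays, scaling, filters, the prior, a replicate block and leaving out each mouse.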

Additional observations from a re-analysis of the deposited data

Results flagged for a closer look

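Of 27 sets of a gene's mice in a group that were examined by Dixon's criterion, 1 held a mouse far from the others, and chance marks about 1 in 20. Control mouse 4 had the highest Casp2 level of the control group at 0.396, and the next highest was 0.0293, so that the gap was 0.859 of the range. The same mouse was also the highest control in Bak1 and had the fewest measured probes of all mice, 4654. Without it the Casp2 difference on day 1 was -0.29 and on day 2 it was still called.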

How the results depend on the processing

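Under the alternatives tried, the Cdkn1a and Tnfrsf10b calls against control on days 1 and 2 held throughout. So did the Ddit4 and Polk calls on day 1 and the lower Casp2 call on day 2. The Trp53inp1 call on day 5 held in the 31 alternatives in which it was tested. Of the 7 genes' results with 1 mouse left out, 782 kept direction and call, 18 lost the call, 6 gained it and 16, all uncalled, reversed. With other alternatives these numbers were 595, 9, 13 and 7.

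Leaving out 1 mouse gave 611 to 1313 features called on day 1 (lowest without day 1 mouse 3, and 641 without day 1 mouse 2), 592 to 1123 on day 2 (lowest without day 2 mouse 1), 100 to 161 on day 5, 77 to 167 between days 2 and 1 (highest without day 5 mouse 4), 816 to 1211 between days 5 and 2, 970 to 1574 between days 5 and 1, and 1414 to 1860 by the F test. Of the 7 genes it called 4 to 6 on day 1, 3 to 5 on day 2 (3 without control mouse 3 or 4), 0 to 1 on day 5, 0 between days 2 and 1, 2 to 4 between days 5 and 2 and 3 to 5 between days 5 and 1 (3 without day 1 mouse 3). The 0 on day 5 arose without day 1 mouse 2, 3 or 4, when Trp53inp1 had too few day 1 mice to be tested. Small, uncalled differences changed sign. Between days 2 and 1, that of Cdkn1a ran from -0.25 (without day 1 mouse 2) to 0.26, that of Tnfrsf10b from -0.050 (without day 1 mouse 1) to 0.18, and that of Bak1 from -0.043 (without day 1 mouse 4) to 0.034. On day 5, Ddit4 ran from -0.037 (without day 5 mouse 5) to 0.21 and Tnfrsf10b from -0.059 to 0.019 (without control mouse 3).

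Fitting arrays singly with the mouse as a random block called 210 features on day 5 (139 in the reported fit), 241 between days 2 and 1 (111) and 1 of the 7 genes there, Trp53inp1. Centring and scaling each array gave 223 and 69 and turned the Cdkn1a difference between days 2 and 1 to -0.032. Fitting only the groups compared gave 65 between days 2 and 1. Requiring 4 mice per group left 0 of the 7 called on day 5, since Trp53inp1 was not tested. Technical array 1 alone turned the day 5 differences of Ddit4 (-0.067) and Tnfrsf10b (0.038), and array 2 alone those between days 2 and 1 of Tnfrsf10b (-0.033) and Bak1 (-0.012). With values required on both arrays the Tnfrsf10b difference between days 2 and 1 was -0.050. With control mouse 4 and day 1 mouse 1 both left out, an alternative chosen after seeing the data, it was also -0.050, and 3 of the 7 were called on day 2. Where no cause is named, the cause was not tested.

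With group means removed, mice that share a number in different groups correlated at -0.39 to 0.33 (30 pairs, median -0.002). Mice of different numbers correlated at -0.44 to 0.41 (120 pairs, median 0.002). These correlations take all features with values in every mouse together. Whether mice of a number share a factor in single genes was not tested. With a replicate block, 998 features were called on day 1, 992 on day 2 and 134 on day 5. Of the 7 genes, Ddit4 was additionally called between days 5 and 2 (-0.80 ± 0.21, limma adjusted p = 0.0108).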

Other observations

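The 88 features that follow Tnfrsf10b across mice include genes known for roles far from marrow. These were picked after their values were seen. Neurog1, a transcription factor of early neurons, correlated with Tnfrsf10b at 0.938 and differed from control by 0.61 on day 1 and 0.58 on day 2. Tecta, a protein of the inner ear (0.933), Pkdrej, a receptor known from sperm (0.923), and Nodal, a signal of the early embryo (0.922), were others. They differed on day 1 by 0.44, 0.80 and 0.42, and on day 5 by 0.07, 0.06 and -0.08. The 88 also hold Flt1 (0.940), a VEGF receptor of endothelium and thus of a cell type present in marrow. Flt1 differed by 0.60 on day 1 and by -0.02 on day 5. The 88 were chosen for likeness over all groups, so these differences largely restate that of Tnfrsf10b. Features with values in all mice had a median of 0 partners above 0.9.

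Limits of these data are that blank values follow an unknown rule, that Trp53inp1 was measured in only 3 day 1 mice, and that each gene rests on 1 probe.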
